A study of Mus musculus with 21 samples.

Results

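The genes of de novo lipogenesis and triglyceride assembly were followed in RNA sequencing counts from whole brown fat (BAT, brown adipose tissue), which burns lipid to make heat, and from white vastus lateralis (WV), a fast-contracting part of the thigh muscle. The list holds 30 gene symbols picked for their known function. A gene model carried the symbol for 29 of them, out of 28541 models in the deposited tables, and for Acaca, which had more than 1 model, the model with the highest summed count was used. Gpam was not analysed here. The groups were BAT of BATI4KO mice (6 libraries), BAT of their floxed littermates (5), WV of BATI4KO mice (5) and WV of floxed littermates (5). The labels do not spell out BATI4KO. As far as the study is known, it stands for brown adipocytes lacking Irf4, a transcription factor, and WV is then a muscle outside the tissue of the deletion. Strain, sex, age, diet, feeding state, treatment and Cre line are not in the labels. Nor is it stated that libraries came from separate animals, and a p-value here reflects the spread among libraries, which may be technical. Libraries are named by their titles, where KO stands for BATI4KO and FX for floxed.

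De novo lipogenesis turns surplus carbon into fat. Citrate leaves the mitochondrion, is cleaved to acetyl-CoA, is carboxylated to malonyl-CoA and is built into palmitate with NADPH as the reductant, after which desaturases and elongases shape the chain. Triglyceride assembly then attaches fatty acids to a glycerol backbone by acylation, dephosphorylation and a final acylation. Brown fat is known for running this synthesis beside fat oxidation when it is stimulated, while skeletal muscle takes most of its fatty acids from the blood.

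Promoter sequences are given for 3 members. Fasn encodes the enzyme that makes palmitate. Thrsp and Mid1ip1 encode related proteins of the Spot14 family with opposite tissue patterns in these libraries. Each sequence is the 250 bases before the annotated start of the gene, from RefSeq on build GRCm38.p6, which is not the build named for the count tables. Capitals mark CCAAT boxes on either strand in Fasn and Thrsp, and GC boxes (GGGCGG, here on the minus strand as CCGCCC) in Mid1ip1.
Fasn promoter, chr11:120824548-120824797, minus strand: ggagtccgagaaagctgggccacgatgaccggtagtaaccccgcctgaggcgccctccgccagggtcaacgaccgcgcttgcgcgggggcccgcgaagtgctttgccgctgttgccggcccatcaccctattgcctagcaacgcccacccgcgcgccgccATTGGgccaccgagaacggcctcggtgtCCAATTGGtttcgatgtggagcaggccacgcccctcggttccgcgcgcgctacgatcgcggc
Thrsp promoter, chr7:97417551-97417800, minus strand: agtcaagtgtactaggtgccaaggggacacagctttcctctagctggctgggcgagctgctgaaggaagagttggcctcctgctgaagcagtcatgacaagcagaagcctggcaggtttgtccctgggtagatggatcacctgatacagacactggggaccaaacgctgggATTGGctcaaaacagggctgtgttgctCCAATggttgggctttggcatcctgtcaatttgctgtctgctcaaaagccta
Mid1ip1 promoter, chrX:10717115-10717364, plus strand: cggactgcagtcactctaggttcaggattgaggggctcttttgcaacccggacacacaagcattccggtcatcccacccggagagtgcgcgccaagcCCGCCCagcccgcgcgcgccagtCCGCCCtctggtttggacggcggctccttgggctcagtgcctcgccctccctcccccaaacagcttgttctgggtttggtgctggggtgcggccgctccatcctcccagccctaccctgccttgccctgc

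In these windows, the Fasn promoter had CCAAT boxes beginning at -90, -62 and -59 from the start, of which the last 2 overlap on opposite strands, and the Thrsp promoter had them at -79 and -52. The Mid1ip1 promoter held no CCAAT box and had GC boxes at -153 and -130. This contrast did not follow tissue pattern over the list. The promoters of Tkt, Acly, Agpat2 and G6pdx, all higher in BAT, likewise held GC boxes and no CCAAT box. That of Elovl6, also higher in BAT, held neither. The RefSeq table held 32 promoters for 24 of the members. CCAAT was found on either strand in 14 of the 32, against 33.8% of all 32851 promoters of the same length, and GGGCGG in 18 of the 32, against 32.7% of all. The E-box CACGTG, the palindrome recognised by SREBP and ChREBP type factors, was in 4 of the 32 (6.02% of all), and the sterol regulatory element TCACNCCAC in 1 (1.05% of all). A match describes letters in a window and is no evidence of binding.

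In BAT a library held 20219479 to 41773148 counts, and in WV 30479508 to 40328627. Irf4 was at 6.57 to 8.10 CPM (counts scaled to a common library size within each tissue) in BATI4KO BAT and at 23.9 to 59.8 CPM in floxed BAT, without overlap (edgeR quasi-likelihood test, adjusted p = 0.0026), and it did not pass the test in WV (adjusted p = 0.489). The tissue labels matched their markers, with Ucp1 at 1401 to 7606 CPM in BAT and at most 0.299 CPM in WV. Markers of liver and of milk secretion were low. The liver markers Alb, Apoa1 and Ttr summed to at most 5.43 CPM in any library, and the milk protein gene Csn2 was at 0 in all 11 BAT libraries. A share of white fat in the BAT samples was not tested. The fat hormone gene Lep was at 9.83 to 45.0 CPM in BATI4KO BAT and 8.59 to 21.1 CPM in floxed BAT. The 16 contractile muscle markers summed to 862 to 24795 CPM in BATI4KO BAT and to 204 to 1613 CPM in floxed BAT, with library BAT_KO_3 at the top and the next BATI4KO library at 3890 CPM. In BAT titles, some libraries carry short numbers (1, 2 or 3) and the others long tags, and the style was a covariate in the BAT fit. Because these are bulk samples, fewer cells of a type and less RNA per cell cannot be told apart.

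Lipogenic transcripts were a large part of brown fat RNA and a minute part of muscle RNA. The 29 genes together took 3.33% to 9.16% of all counts in a BAT library and 0.148% to 0.177% in a WV library. Fasn and Scd1 alone took 2.08% to 7.13% of a BAT library. Levels between genes are given as CPM per kb of model length on a scale shared by all 21 libraries. On that scale the highest mean levels in BATI4KO BAT were those of Scd1 (3897 ± 2240.2), Fasn (1062 ± 617), Dgat2 (761 ± 148) and Thrsp (668 ± 293), and the lowest were those of Fads2 (1.15 ± 0.156), Lpin3 (1.81 ± 0.437), Lpin2 (2.16 ± 0.168) and Fads1 (2.22 ± 0.311; SD, n = 6). Muscle had another order. Lpin1 led in BATI4KO WV at 119 ± 26.1 CPM per kb, followed by Me1 at 103 ± 38.2 and Acacb at 70.9 ± 22.0, and Elovl6 was last at 0.222 ± 0.0746 (SD, n = 5).

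Between tissues, 23 of the 29 genes were higher in BAT than in WV in BATI4KO mice and 23 in floxed mice (edgeR quasi-likelihood test over 16632 models, adjusted p under 0.05). Title style was a covariate, and all WV libraries carry long tags. Each tissue difference is therefore the one at the long-tag style, while the printed levels cover all libraries, so the 2 can disagree. In BATI4KO mice 37.4% of all tested models were higher in BAT and 33.1% lower, and in floxed mice 34.1% were higher and 31.7% lower. The median log2 difference of the list, BAT minus WV, was 2.74 in BATI4KO mice and 2.49 in floxed mice, beside 0.14 and 0.11 over all tested models. Mid1ip1 was lower in BAT in both genotypes, Lpin1 was lower in BAT of BATI4KO mice, and the rest did not pass. The split over all models depends on the scaling. With library totals in place of TMM factors, the median of all models moved to 1.09 in BATI4KO and 0.79 in floxed mice, and 11365 models were higher in BAT and 2288 lower in BATI4KO mice, against 6213 higher and 5505 lower with TMM. In floxed mice the split was 9474 higher and 2647 lower with library totals, against 5676 and 5276 with TMM. With library totals 68.3% of all models were thus higher and 13.8% lower in BATI4KO mice, and 57% were higher and 15.9% lower in floxed mice. On that scale 28 of the 29 genes passed as higher in BAT in each genotype, since Scd2, Me1, Lpin1, Lpin3 and Fads1 passed as well.

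**Figure D1:**
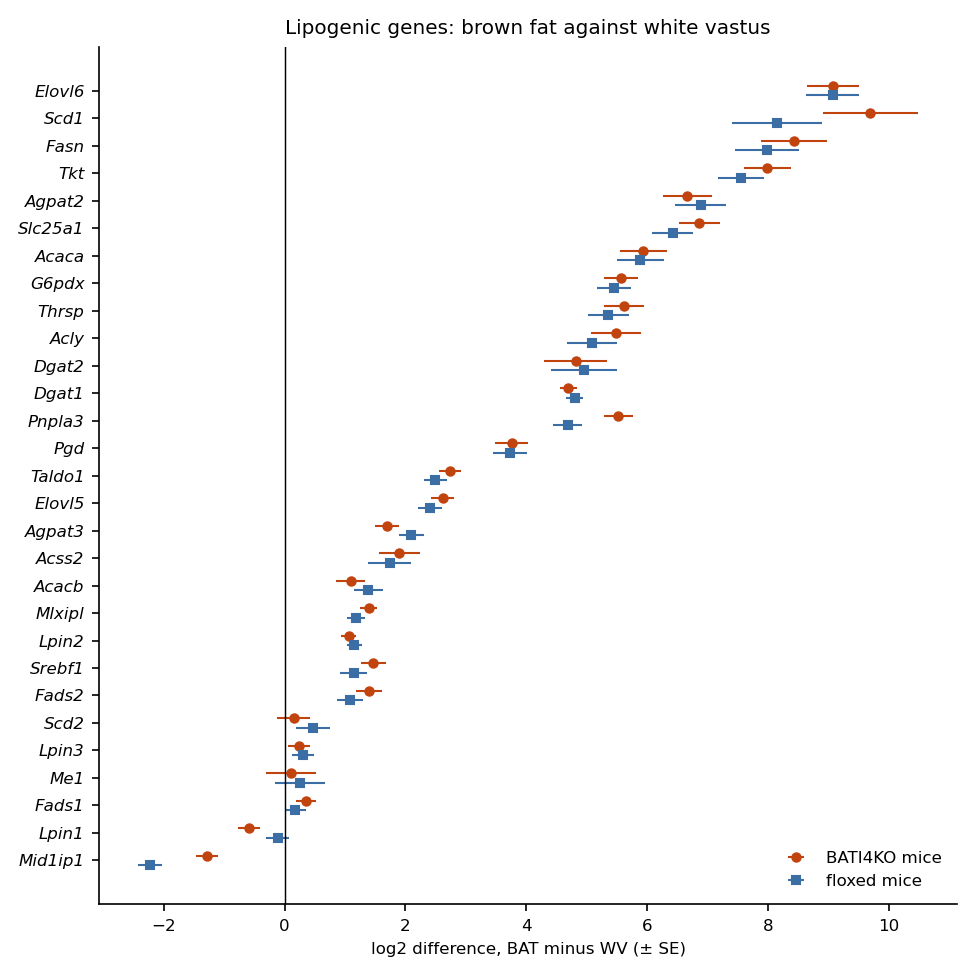
Log2 difference between BAT and WV for each of the 29 genes, in BATI4KO mice (circles) and floxed mice (squares), with bars of 1 SE from the edgeR fit over 21 libraries. Elovl6, Scd1, Fasn and Tkt lie furthest to the right, between 7.55 and 9.69, and Mid1ip1 lies furthest to the left, at -1.28 and -2.23.

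All 6 genes of carbon supply and chain building were higher in BAT in both genotypes. Slc25a1, the mitochondrial carrier that exports citrate, was at 53.2 to 159 CPM per kb in BATI4KO BAT (median 111) and at 1.09, 1.18, 1.23, 0.960 and 1.59 in BATI4KO WV, a log2 difference of 6.86 (SE 0.34, edgeR adjusted p = 2.51e-13). In floxed mice it was at 84.3, 50.5, 84.2, 88.3 and 186 CPM per kb in BAT and 0.937, 2.68, 1.52, 1.11 and 1.28 in WV, a difference of 6.42 (SE 0.34, edgeR adjusted p = 7.77e-13). Every BAT library lay far above every WV library in both pairs. Acly, which cleaves citrate to cytosolic acetyl-CoA, differed by 5.48 in BATI4KO and 5.09 in floxed mice. Acss2, the ligase that makes acetyl-CoA from acetate, differed less, by 1.90 and 1.74, and it was the only 1 of the 6 whose BAT and WV libraries overlapped, at 7.73 to 33.6 against 3.74 to 8.71 CPM per kb.

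Fasn, which assembles palmitate, was at 425 to 1820.1 CPM per kb in BATI4KO BAT (median 838) and at 2.84, 4.51, 3.73, 3.15 and 4.15 in BATI4KO WV (log2 difference 8.43, SE 0.54, edgeR adjusted p = 1.09e-11). In floxed mice it was at 1250.2, 433, 669.6, 1209.7 and 1514 CPM per kb in BAT and at 3.02, 5.53, 5.17, 6.99 and 3.37 in WV (log2 difference 7.98, SE 0.53, edgeR adjusted p = 2.61e-11). The lowest BAT library still held many times the level of the highest WV library. The acetyl-CoA carboxylases split. Acaca, the cytosolic form that feeds synthesis, was at 176 ± 90.5 CPM per kb in BATI4KO BAT and 3.52 ± 0.462 in BATI4KO WV, and at 164 ± 76.5 in floxed BAT and 3.42 ± 0.327 in floxed WV (SD, n = 6, 5, 5 and 5). Acacb, the form at the mitochondrial surface whose malonyl-CoA restrains fatty acid entry, was at 170.4 ± 33.7 in BATI4KO BAT and 70.9 ± 22.0 in BATI4KO WV, and at 175 ± 15.2 in floxed BAT and 58.8 ± 17.5 in floxed WV. In BAT the forms were thus at like levels per length, and in WV Acacb was well above Acaca in all 10 libraries. The tissue difference was 5.93 for Acaca and 1.09 for Acacb in BATI4KO mice, and 5.89 and 1.39 in floxed mice (SE 0.39 and 0.24 in each, all passing).

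Of the 6 desaturases and elongases, 4 were higher in BAT in both genotypes, and Scd2 and Fads1 did not pass in either. Elovl6, which lengthens palmitate, was nearly absent from muscle. It was at 43.6 to 148 CPM per kb in BATI4KO BAT (median 94.1) and at 0.342, 0.166, 0.202, 0.243 and 0.160 in BATI4KO WV, and at 90.0, 46.9, 58.4, 114 and 159 in floxed BAT and 0.153, 0.390, 0.249, 0.181 and 0.149 in floxed WV. The difference was 9.07 in both genotypes (SE 0.43 and 0.44, edgeR adjusted p = 1.25e-13 and 1.75e-13). Elovl5, which extends polyunsaturated chains, differed by only 2.62 in BATI4KO and 2.41 in floxed mice (SE 0.19 each).

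Scd1 and Scd2, related desaturases that place the double bond of oleate, had unlike tissue patterns. Scd1 was at 2029 to 6871 CPM per kb in BATI4KO BAT (median 2756) and at 8.83, 5.94, 5.60, 3.52 and 3.94 in BATI4KO WV (log2 difference 9.69, SE 0.79, edgeR adjusted p = 5.00e-10). In floxed mice Scd1 was at 2910.2, 3033, 3077, 4420.1 and 6617 CPM per kb in BAT and at 6.26, 36.0, 6.99, 29.6 and 3.76 in WV (log2 difference 8.15, SE 0.75, edgeR adjusted p = 3.75e-09). Scd2 was at 4.94 to 12.4 CPM per kb in BATI4KO BAT (median 6.22) and 5.14 to 9.88 in BATI4KO WV, and its difference of 0.15 did not pass (SE 0.27, edgeR adjusted p = 0.627), nor did that of 0.47 in floxed mice (SE 0.28, adjusted p = 0.149). The tissues overlapped for Scd2 and were widely apart for Scd1. How reads matching both genes were assigned is not given in the sources used here. The polyunsaturated fatty acid desaturases were low in both tissues, with Fads2 higher in BAT (1.3975 in BATI4KO, SE 0.21, and 1.08 in floxed mice, SE 0.21) and Fads1 at 0.35 and 0.18, not passing (edgeR adjusted p = 0.0697 and 0.39).

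Among the 5 genes that supply NADPH or recycle pentose phosphates, 4 were higher in BAT in both genotypes. Tkt, the transketolase that returns pentoses to glycolysis, had the largest difference. It was at 257 to 1212 CPM per kb in BATI4KO BAT (median 504) and at 3.28, 2.76, 3.04, 1.996 and 3.06 in BATI4KO WV (log2 difference 7.99, SE 0.38, edgeR adjusted p = 1.35e-13). In floxed mice it was at 475, 285, 334, 544 and 745 CPM per kb in BAT and at 2.42, 5.34, 3.62, 4.11 and 2.51 in WV (log2 difference 7.55, SE 0.38, edgeR adjusted p = 3.97e-13). G6pdx and Pgd, the NADPH-making dehydrogenases of the pathway, differed by 5.57 and 3.76 in BATI4KO mice and by 5.45 and 3.73 in floxed mice, and Taldo1, the transaldolase, by 2.74 and 2.49. Me1, the malic enzyme that makes NADPH from malate, was at 42.9 to 199 CPM per kb in BATI4KO BAT (median 66.1) and 61.1 to 157 in BATI4KO WV, and at 36.9 to 125 in floxed BAT and 57.5 to 89.8 in floxed WV. Its difference did not pass in either genotype (0.11 with an SE of 0.41 in BATI4KO, 0.26 with an SE of 0.41 in floxed mice), and the interval of 2 SE around the BATI4KO value ran from -0.71 to 0.94. These differences are those at the long-tag style. Over all libraries of BATI4KO mice the mean of Me1 was lower in BAT, at 96.4 against 103 CPM per kb.

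Of 8 triglyceride assembly genes, 6 were higher in BAT in both genotypes. Agpat2, which adds the second fatty acid to the backbone, was at 196 to 588 CPM per kb in BATI4KO BAT (median 314) and at 7.86, 2.57, 2.93, 7.19 and 2.35 in BATI4KO WV (log2 difference 6.66, SE 0.40, edgeR adjusted p = 4.61e-12). In floxed mice Agpat2 was at 394, 293, 286, 327 and 753 CPM per kb in BAT and at 4.71, 6.25, 6.11, 2.39 and 4.73 in WV (log2 difference 6.88, SE 0.42, edgeR adjusted p = 5.74e-12). Agpat3, a relative that acts on the same substrate, differed by 1.70 (SE 0.19) and 2.10 (SE 0.20) and was above Agpat2 per kb in every WV library. The diacylglycerol acyltransferases of the final step did not split in this way. Dgat1 differed by 4.69 (SE 0.14) in BATI4KO and 4.80 (SE 0.14) in floxed mice, and Dgat2 by 4.82 (SE 0.52) and 4.95 (SE 0.54). Pnpla3, a lipid droplet protein of the patatin-like family, differed by 5.52 (SE 0.24) and 4.68 (SE 0.24).

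The lipins, phosphatases that turn phosphatidate into diacylglycerol, had the least regular pattern. Lpin2 was higher in BAT, by 1.06 (SE 0.12) in BATI4KO and 1.15 (SE 0.12) in floxed mice, and Lpin3 did not pass at 0.24 (SE 0.18) and 0.30 (SE 0.19). Lpin1 was at 67.7 to 130.3 CPM per kb in BATI4KO BAT (median 81.7) and at 89.7, 154, 111, 138 and 104 in BATI4KO WV, with overlap, and its difference of -0.59 passed (SE 0.18, edgeR adjusted p = 0.00751). With a replicate block over the 8 libraries whose tag occurs in both tissues it was -0.293 and did not pass (edgeR adjusted p = 0.339). In floxed mice Lpin1 was at 112, 109, 130.1, 109 and 95.4 CPM per kb in BAT and 113, 82.8, 98.3, 122 and 112 in WV, with a higher mean in BAT (111 against 106). The log2 difference at the long-tag style was -0.11 and did not pass (SE 0.19, edgeR adjusted p = 0.626). With scaling by library totals these differences of Lpin1 changed sign, to 0.40 in BATI4KO mice (adjusted p = 0.037) and 0.60 in floxed mice (adjusted p = 0.00526). Lpin1 carries nearly all lipin RNA in both tissues, since Lpin2 and Lpin3 averaged 1.10 to 2.31 CPM per kb in the 4 groups.

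The regulators included the only gene that was lower in BAT in both genotypes. Mid1ip1, whose product promotes polymerisation of acetyl-CoA carboxylase, was at 5.46 to 8.91 CPM per kb in BATI4KO BAT (median 7.10) and at 18.9, 16.5, 15.6, 25.7 and 22.4 in BATI4KO WV (log2 difference -1.28, SE 0.18, edgeR adjusted p = 1.38e-06). In floxed mice Mid1ip1 was at 7.02, 4.62, 5.57, 6.44 and 8.62 CPM per kb in BAT and at 41.1, 31.5, 41.0, 25.6 and 36.0 in WV (log2 difference -2.23, SE 0.20, edgeR adjusted p = 1.87e-09). No BAT library reached a WV library. With library totals the difference stayed negative, at -0.32 in BATI4KO mice, where it no longer passed (adjusted p = 0.0724), and at -1.53 in floxed mice. Thrsp, the Spot14 relative of Mid1ip1, ran the other way, by 5.62 (SE 0.33) in BATI4KO and 5.35 (SE 0.34) in floxed mice. Srebf1 and Mlxipl, which encode the lipogenic factors SREBP and ChREBP, were moderately higher in BAT, by 1.47 and 1.395 in BATI4KO and 1.15 and 1.18 in floxed mice, beside the far larger differences of the enzymes above.

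Within brown fat, no lipogenic gene passed the genotype test. Of 29 genes 0 passed in either direction, beside 7 of 16051 models in all, or 0.0436% (edgeR quasi-likelihood test with title style as covariate). At an unadjusted p under 0.05 there were 3 of the 29, Srebf1, Lpin1 and Mlxipl, where 14.7% of all models reach that level. By limma voom 0 of the 29 passed, beside 0.0498% of all models, and by DESeq2 1 did, Srebf1, beside 2.32% of all models. No gene of the list had groups that did not overlap, which 1% of all models had. The log2 difference, BATI4KO minus floxed, was above 0 for 17 genes and below 0 for 12, with a median of 0.06 beside -0.01 over all models. With library totals 23 genes were above 0, with a median of 0.18 beside 0.13 over all models.

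The main enzymes had nearly equal group means with wide spread. Fasn was at 8548, 24944, 5693, 23784, 13563 and 8784 CPM in BATI4KO BAT and at 16826, 5864, 9151, 16244 and 20113 CPM in floxed BAT. The groups overlapped almost completely, with the highest and the lowest library both BATI4KO. Its mean was 14219 ± 8263 CPM in BATI4KO and 13639.5 ± 5904 CPM in floxed BAT (SD, n = 6 and 5), a log2 difference of 0.06 (SE 0.40, edgeR adjusted p = 0.964), and 2 SE around it ran from -0.73 to 0.85, so a sizeable change in either direction lies within the interval. Without library BAT_KO_2, the highest, the difference was -0.40 (adjusted p = 0.571). Scd1 averaged 25401 ± 14574 CPM in BATI4KO and 26234 ± 10054 CPM in floxed BAT (SD, n = 6 and 5), a log2 difference of -0.03 (SE 0.35, edgeR adjusted p = 0.979). Acaca, Acly, Me1 and Tkt differed by 0.09, 0.24, 0.27 and 0.08, each less than its own SE.

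The regulators held the smallest p-value. Srebf1 was at 304, 286, 234, 222, 362 and 254 CPM in BATI4KO BAT and at 205, 155, 249, 149 and 197 CPM in floxed BAT. Of the 6 BATI4KO libraries 4 were above every floxed library, and the groups overlapped through library BAT_FX_3. The means were 277 ± 52.0 CPM in BATI4KO and 191 ± 40.6 CPM in floxed BAT (SD, n = 6 and 5). The log2 difference, 0.55, did not pass (SE 0.16, unadjusted p = 0.00469, edgeR adjusted p = 0.191). DESeq2 gave it an adjusted p of 0.0489. Within the libraries with short numbers the difference was 0.44 (SE 0.19, edgeR adjusted p = 0.656). The long-tag libraries gave 0.71 (SE 0.225, edgeR adjusted p = 0.224). Of the 5 libraries highest for Fasn, 1 was among the 5 highest for Srebf1, and whether Srebf1 RNA bears on Fasn was not tested.

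Mlxipl was at 268, 223, 257, 139, 173 and 191 CPM in BATI4KO BAT and at 225, 200.2, 195, 131 and 164 CPM in floxed BAT. The groups overlapped over most of their range, and the difference of 0.23 did not pass (SE 0.10, unadjusted p = 0.0455, edgeR adjusted p = 0.327). Thrsp and Mid1ip1 differed by 0.01 and 0.12 (SE 0.23 and 0.14), so all 4 regulators had values above 0, where 48.8% of all models do, though Thrsp was at -0.004 with the size factors of DESeq2.

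Triglyceride assembly leaned the other way, with 7 of 8 genes below 0 (51.2% of all models are) and a median of -0.16, and none passed. With library totals 6 of 8 were below 0, with a median of -0.02. Lpin1 was at 767, 594, 1009.6, 512, 619 and 643 CPM in BATI4KO BAT and at 875, 850.2, 1028, 847 and 733 CPM in floxed BAT. There were 4 BATI4KO libraries below every floxed library, and BAT_KO_3 was near the top of all 11. The difference was -0.31 (SE 0.13, unadjusted p = 0.0415, edgeR adjusted p = 0.318), and -0.41 without BAT_KO_3 (adjusted p = 0.21). Agpat2 was at 410.4, 412, 295, 747, 874 and 539 CPM in BATI4KO BAT and at 595, 446, 439, 493 and 1122 CPM in floxed BAT, with overlap. Its difference was -0.30 (SE 0.20, edgeR adjusted p = 0.521). Without BAT_FX_5503, the highest, it was -0.11 (adjusted p = 0.898), and without BAT_FX_5497 it was -0.49 (adjusted p = 0.203). Pnpla3, the exception above 0, was at 220.5, 401, 236, 402, 289.8 and 261 CPM in BATI4KO BAT and at 286, 167, 197, 216 and 295 CPM in floxed BAT. These groups overlapped, and 0.36 did not pass (SE 0.19, edgeR adjusted p = 0.409).

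**Figure D2:**
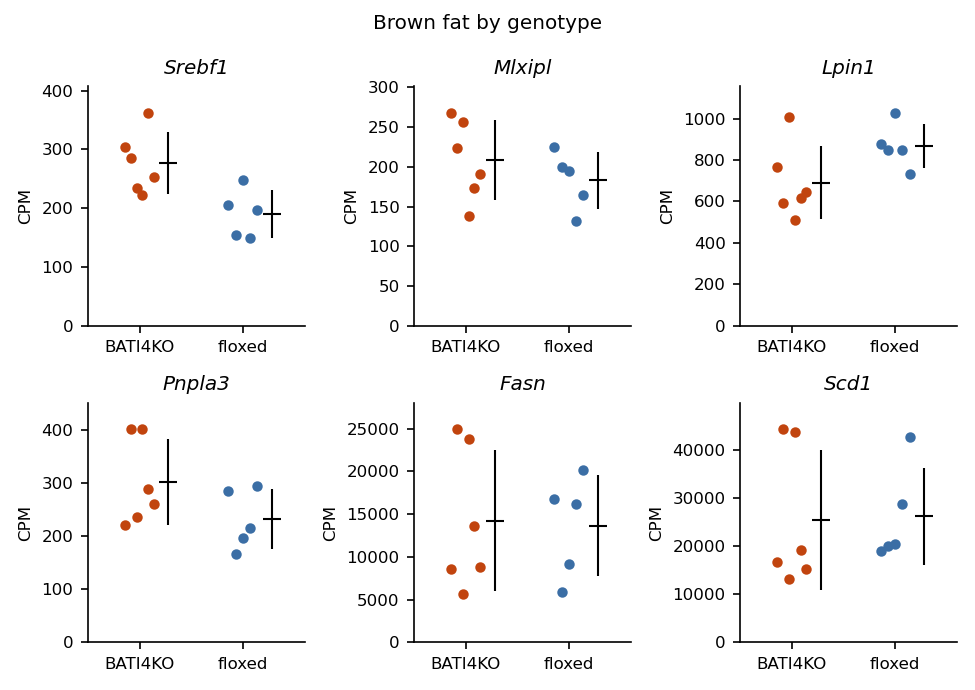
CPM of 6 genes in each BAT library, BATI4KO left (6 libraries) and floxed right (5 libraries), with the mean and SD as a cross and bar beside the points and axes from 0. The genotypes overlap in every panel, and 4 of 6 BATI4KO libraries of Srebf1 lie above all floxed libraries.

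Muscle RNA leaned higher in BATI4KO BAT beside these values, with overlapping groups. All 16 contractile markers were above 0 and 15 had an unadjusted p under 0.05, though 0 passed after adjustment (edgeR), with the sums given above and no marker at 0 in a whole group. Of all models 48.8% are above 0 and 14.7% have an unadjusted p under 0.05. The markers were read in the same libraries and are not independent calls. Adipocyte markers (8 genes) summed to 6013 to 10174 CPM in BATI4KO BAT and 6171 to 11041 CPM in floxed BAT, 2 of 8 had an unadjusted p under 0.05, both lower, and 0 passed. Brown adipocyte markers (6 genes) summed to 3467 to 8529 CPM in BATI4KO BAT and 4413 to 12414 CPM in floxed BAT. All 6 were below 0 (51.2% of all models are), 3 had an unadjusted p under 0.05 (Ucp1, Elovl3 and Dio2), and 0 passed. With a muscle score as covariate, 0 of the 29 lipogenic genes passed, while 10 had an unadjusted p under 0.05, beside 6.55% of all models. Of these, Acly, Scd2, Elovl5, Srebf1, Me1, Pnpla3, Slc25a1 and Acss2 were above 0 and Lpin1 and Lpin3 below. Fasn moved to 0.71 (SE 0.39, edgeR adjusted p = 0.808), Agpat2 to 0.09 (adjusted p = 0.971) and Lpin1 to -0.60 (adjusted p = 0.471). The markers behind the score themselves leaned higher in BATI4KO BAT, so this fit cannot fully separate genotype from muscle RNA. Without BAT_KO_3, which was lowest of all 11 for 13 of the 29 genes, Fasn was at 0.22 (adjusted p = 0.844) and Srebf1 at 0.63 (adjusted p = 0.169).

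Libraries of the same genotype differed widely in brown fat. From lowest to highest library within a genotype, Acly ranged 4.84-fold in BATI4KO and 3.37-fold in floxed BAT, Me1 4.74-fold and 3.34-fold, Tkt 4.61-fold and 2.56-fold, Fasn 4.38-fold and 3.43-fold, Acaca 4.10-fold and 3.81-fold, and Scd1 3.35-fold and 2.24-fold. Lpin2 ranged 1.16-fold in BATI4KO and 1.47-fold in floxed BAT, Fads1 1.54-fold and 1.24-fold, Acacb 1.68-fold and 1.27-fold, and Dgat2 1.68-fold and 1.11-fold. After the fit for genotype and title style, the median SD of log2 CPM was 0.37 for the 29 genes and 0.24 for all models tested in BAT. Several synthesis enzymes were high in many of the same libraries. Fasn was highest in BAT_KO_2, BAT_KO_5414, BAT_FX_5503, BAT_FX_1 and BAT_FX_5497. Of the 28 other genes, Me1 and Pgd had those same 5 libraries as their highest, 13 shared 4 of the 5, 10 shared 3, Lpin1 and Mlxipl shared 2 and Srebf1 shared 1. These counts describe genes measured in the same 11 libraries, which share depth and scaling. The same count was not made over all models, so the sharing is not shown to be particular to this list.

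Both forms within a related pair could differ in this. Acaca ranged between 1111 and 4556 CPM over the BAT libraries, and Acacb between 1478 and 2479 CPM. In BAT_KO_5414, Acaca was at 4268 CPM, near its top, and Acacb at 1478 CPM, its lowest value. Over all 11 libraries Agpat2 ranged 3.81-fold and Agpat3 1.80-fold, and Dgat1 2.42-fold and Dgat2 1.68-fold. Title style moved with some of them. Dgat1 was at 328, 398 and 305 CPM in the BATI4KO libraries with long tags and at 233, 226 and 181 CPM in those with short numbers, and at 371 and 437 CPM in floxed libraries with long tags against 257, 227 and 196 CPM with short numbers. Mlxipl ran the other way, with 139, 173 and 191 CPM against 268, 223 and 257 CPM in BATI4KO libraries, and 131 and 164 CPM against 225, 200.2 and 195 CPM in floxed libraries. The RNA Rmrp, part of an RNA-processing enzyme, also moved with title style, at 299 to 1330 CPM in short-number BAT libraries and 11.7 to 32.3 CPM in those with long tags. What the title styles stand for is not given in the labels.

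**Figure D3:**
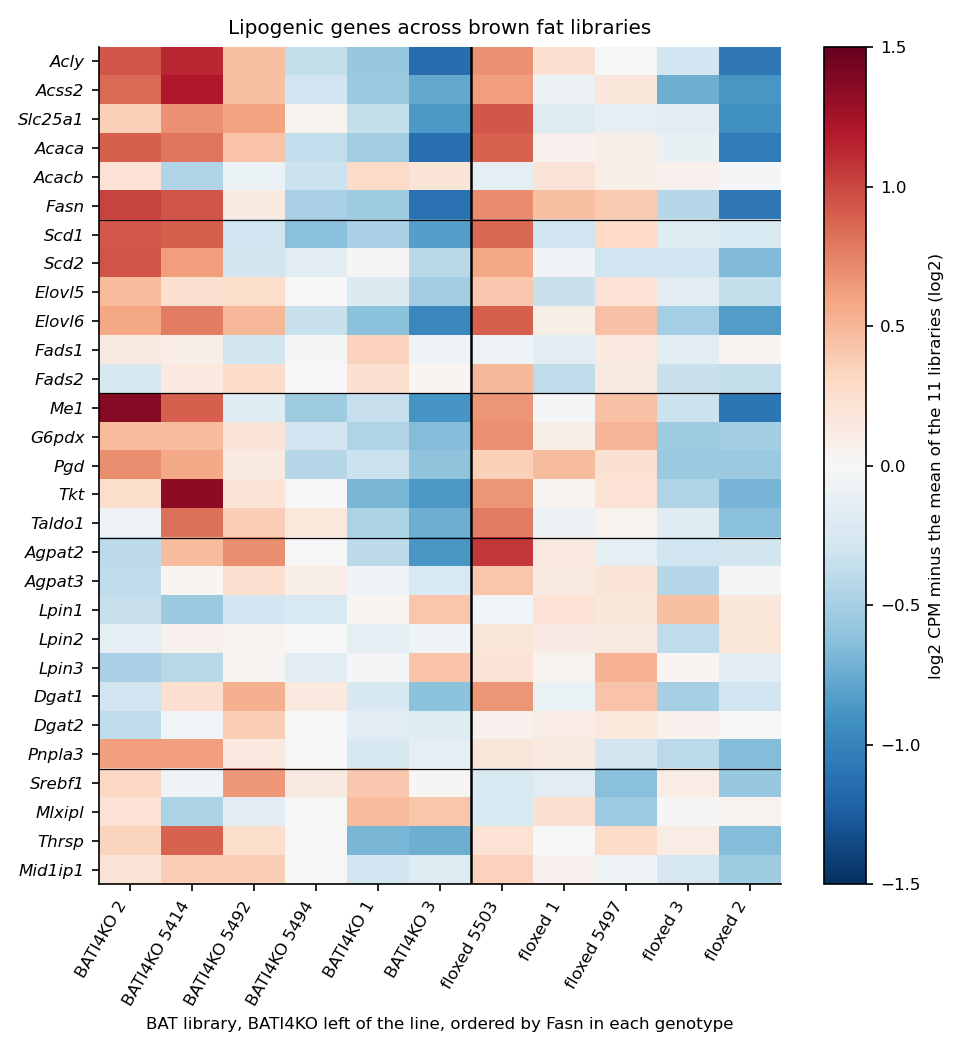
Heat map of the 29 genes (rows, grouped by role) in the 11 BAT libraries (columns, labelled by genotype and title number, BATI4KO left of the line, each genotype ordered by Fasn). Colour is log2 CPM minus the gene's mean over the 11 libraries. Most synthesis and NADPH genes are high together in BAT_KO_2, BAT_KO_5414 and BAT_FX_5503, and low in BAT_KO_3 and BAT_FX_2, while Acacb, Dgat2, the lipins, Srebf1 and Mlxipl do not follow.

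In white vastus, 0 of 29 genes passed the genotype test, beside 1 of 14529 models, or 0.00688% (edgeR quasi-likelihood test). At an unadjusted p under 0.05 there were 5 of 29 (8.91% of all models): Mid1ip1, Scd2, Taldo1, Scd1 and Pnpla3. By limma voom 0 of the 29 passed, beside 0.00688% of all models, and by DESeq2 1 did, Mid1ip1, beside 0.764% of all models. The difference, BATI4KO minus floxed, was above 0 for 9 genes and below 0 for 20 (51.5% of all models are below 0), with a median of -0.095 beside -0.01 over all models.

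Mid1ip1 had the smallest p. It was at 27.9, 24.0, 23.7, 37.0 and 32.6 CPM in BATI4KO WV and at 59.8, 47.1, 62.7, 38.3 and 52.9 CPM in floxed WV. All 5 BATI4KO libraries lay below all 5 floxed libraries, by a narrow gap between 37.0 and 38.3 CPM. It was the only gene of the 29 without overlap, where 0.785% of all models had every BATI4KO library lower. The means were 29.0 ± 5.74 CPM in BATI4KO and 52.2 ± 9.83 CPM in floxed WV (SD, n = 5 each). The log2 difference, -0.85, did not pass (SE 0.16, unadjusted p = 0.000168, edgeR adjusted p = 0.175). DESeq2 gave an adjusted p of 0.00172, and over all 19 alternatives the difference ran from -0.96 to -0.77 and the adjusted p from 0.00172 to 0.737. Rmrp was at 107 to 133 CPM in WV_FX_5497, WV_FX_5503 and WV_FX_5514 and at 11.8 to 22.4 CPM in the other 7 WV libraries. Within those 7, chosen after seeing the data, Mid1ip1 differed by -0.89 (SE 0.19, edgeR adjusted p = 0.737).

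In BAT, Mid1ip1 did not pass and leaned the other way, at 19.98 ± 3.83 CPM in BATI4KO and 17.98 ± 4.05 CPM in floxed libraries (SD, n = 6 and 5; log2 0.12, SE 0.14). The difference between tissues, tested as an interaction, was 0.95 (SE 0.22, unadjusted p = 0.000387, edgeR adjusted p = 0.244) and did not pass. DESeq2 gave it an adjusted p of 0.0348, and edgeR with library totals 0.0453. Of the 29 genes 0 passed this test by edgeR, beside 3 of 16632 models, or 0.018%, and 2 had an unadjusted p under 0.05, Mid1ip1 and Pnpla3 (0.83, SE 0.28, adjusted p = 0.31), where 10.6% of all models do. By DESeq2 1 of the 29 passed, Mid1ip1, beside 0.331% of all models, and by limma voom 0, beside 0.012%.

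Scd2 was the gene with the second smallest p in muscle. It was at 20.1, 37.9, 28.4, 24.3 and 31.0 CPM in BATI4KO WV and at 16.3, 22.6, 17.5, 15.9 and 21.3 CPM in floxed WV, and 4 of 5 BATI4KO libraries were above every floxed library. The difference of 0.60 did not pass (SE 0.17, unadjusted p = 0.00346, edgeR adjusted p = 0.353). Taldo1 was at 40.5, 37.3, 42.2, 36.6 and 39.2 CPM in BATI4KO WV and at 39.4, 46.6, 53.0, 60.1 and 46.7 CPM in floxed WV, overlapping through WV_FX_5413, with a difference of -0.33 (SE 0.11, adjusted p = 0.434). Pnpla3 was at 3.77, 4.72, 4.09, 2.88 and 3.26 CPM in BATI4KO WV and at 3.99, 4.49, 6.87, 6.32 and 4.69 CPM in floxed WV, with overlap and a difference of -0.49 (SE 0.19, adjusted p = 0.487). Within the 7 libraries of low Rmrp, Scd2 was at 0.53, Taldo1 at -0.14 and Pnpla3 at -0.19.

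**Figure D4:**
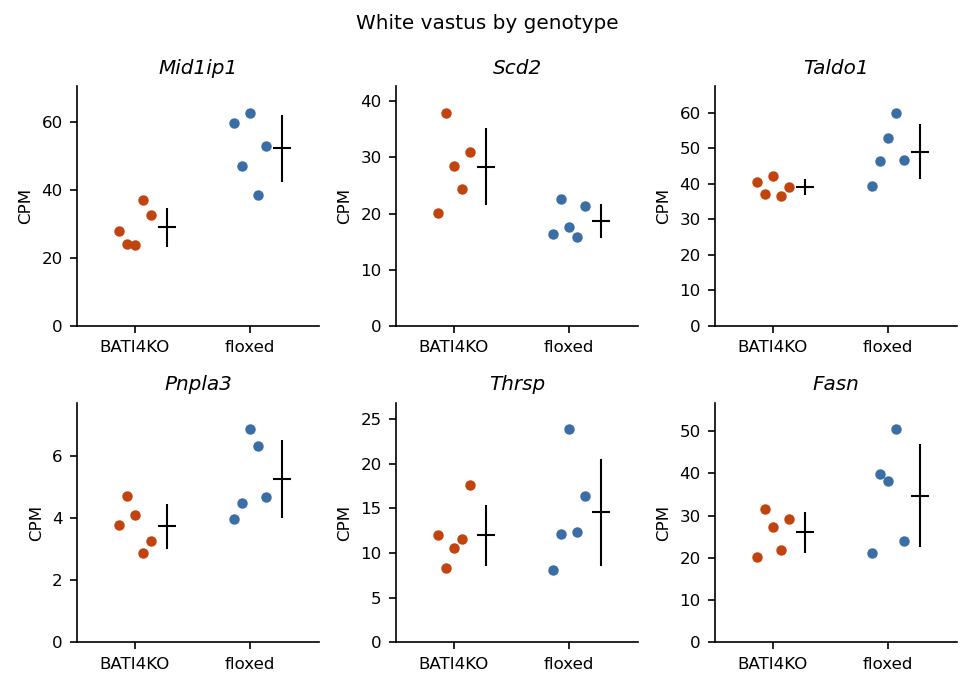
CPM of 6 genes in each WV library, BATI4KO left and floxed right (5 libraries each), with the mean and SD as a cross and bar beside the points and axes from 0. In the panel of Mid1ip1 all BATI4KO points, at most 37.0 CPM, lie below all floxed points, at least 38.3 CPM, and the other panels overlap.

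Scd1 had the largest difference in muscle and it rested on a pair of libraries. It was at 30.7, 20.2, 19.99, 11.9 and 13.4 CPM in BATI4KO WV and at 21.4, 126, 25.1, 104 and 13.0 CPM in floxed WV. Libraries WV_FX_5415 and WV_FX_5503 stood far above the rest, which overlapped. The log2 difference was -1.59 (SE 0.57, edgeR adjusted p = 0.45), -1.085 without WV_FX_5415 (adjusted p = 0.654) and -1.27 without WV_FX_5503 (adjusted p = 0.716). Within the 7 libraries of low Rmrp, which include WV_FX_5415 and not WV_FX_5503, it was -1.95 (SE 0.53, edgeR adjusted p = 0.851). Adipocyte transcripts moved with Scd1. The fat hormone gene Adipoq was at 3.03, 0.739, 0.621, 0.156 and 0.514 CPM in BATI4KO WV and at 0.486, 9.92, 2.14, 3.71 and 0.408 CPM in floxed WV, and the 4 libraries highest for Adipoq were the 4 highest for Scd1. All 8 adipocyte markers were detected and summed to 41.7 to 104 CPM in BATI4KO WV and 62.1 to 155 CPM in floxed WV. Of 6 tested all were below 0, and 0 passed (edgeR). With an adipocyte score as covariate, Scd1 differed by -0.46 (SE 0.345, edgeR adjusted p = 0.887) and Mid1ip1 by -0.95 (SE 0.16, adjusted p = 0.235).

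Dgat2 varied most among muscle libraries after Scd1, by 8.12-fold, and not by genotype. It was at 74.5, 21.5, 20.7, 95.2 and 21.4 CPM in BATI4KO WV and at 42.7, 33.4, 78.4, 11.7 and 75.3 CPM in floxed WV (log2 difference -0.05, SE 0.54, edgeR adjusted p = 0.986). There were 2 libraries of each genotype at 74.5 CPM or more and the other 6 were at or below 42.7 CPM. Those 4 libraries were also the 4 highest for the slow myosin gene Myh7, at 586 and 1007 CPM in BATI4KO and 32.2 and 182 CPM in floxed WV, where the other 6 had 0.675 to 19.9 CPM. They were the 4 highest for Myh2, a myosin of fast oxidative fibres, at 2964 and 5511 CPM in BATI4KO and 2255 and 3741 CPM in floxed WV. Dgat1 in contrast ranged from 5.76 to 8.15 CPM over the 10 libraries. The part of fibre composition in the Dgat2 values was not tested.

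**Figure D5:**
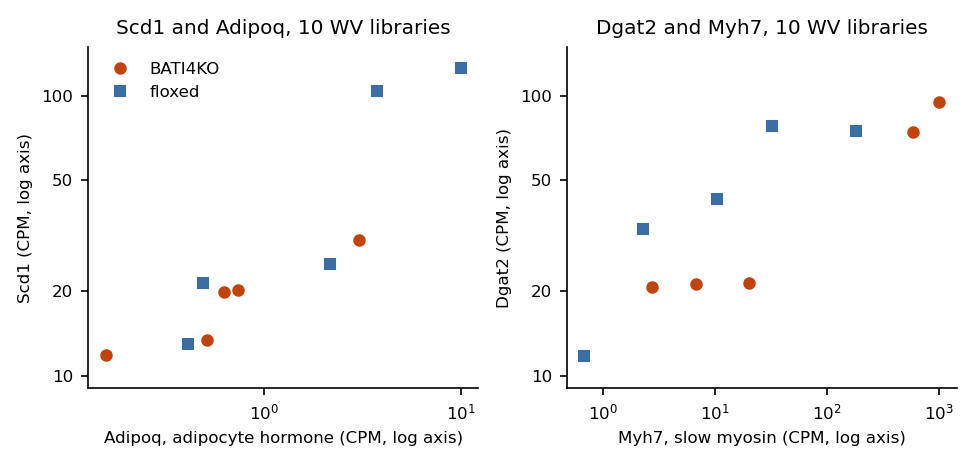
Left, Scd1 against Adipoq and right, Dgat2 against Myh7, in CPM on log axes over the 10 WV libraries, BATI4KO as circles and floxed as squares. The 4 libraries with the most Adipoq have the most Scd1, and the 4 with the most Myh7 have the most Dgat2, in both cases with points of both genotypes among them.

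The synthesis enzymes were low in muscle, and none passed between genotypes. Fasn was at 20.3, 31.6, 27.4, 21.9 and 29.1 CPM in BATI4KO WV and at 21.2, 39.9, 38.2, 50.4 and 24.0 CPM in floxed WV, with overlap (log2 difference -0.42, SE 0.22, edgeR adjusted p = 0.6245). Its interval of 2 SE ran from -0.86 to 0.03. Acaca was at 25.8 to 33.6 CPM in BATI4KO WV and at 26.9 to 32.8 CPM in floxed WV, a difference of 0.02 with an SE of 0.10 and an interval of 2 SE from -0.18 to 0.22. Acacb differed by 0.25 (SE 0.24), Acly by -0.17 (SE 0.18) and Slc25a1 by -0.35 (SE 0.28). Srebf1 was at 31.9, 66.2, 45.3, 42.5 and 72.8 CPM in BATI4KO WV and at 49.8, 45.2, 46.1, 43.9 and 38.5 CPM in floxed WV, a difference of 0.21 (SE 0.19, adjusted p = 0.78) with wider spread in BATI4KO. Mlxipl differed by 0.00 (SE 0.13).

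Other genes of the pathway were read from a list of 58 symbols, of which 53 had a model: sterol sensing, further elongases and acyl-CoA synthetases, other acyltransferases, and glycerol supply. In BAT 0 of 51 tested passed (edgeR), and 12 had an unadjusted p under 0.05, all lower in BATI4KO (7.24% of all models are). Below 0 were 39 of 51 (51.2% of all models are), with a median of -0.09 beside -0.01 over all models. The smallest p were those of Ptplb, a dehydratase of fatty acid elongation, at 99.9 to 157 CPM in BATI4KO and 143 to 284 CPM in floxed BAT (log2 -0.71, SE 0.16, edgeR adjusted p = 0.143), Gyk, the kinase that activates glycerol (-0.98, SE 0.22, adjusted p = 0.143), and Acsl1, an acyl-CoA synthetase (-0.43, SE 0.12, adjusted p = 0.177). Gyk was at 239 to 628 CPM in BATI4KO BAT and 341 to 1434 CPM in floxed BAT. None of these passed, and the groups overlapped for each. In WV 0 of 49 tested passed, and the smallest p were those of Mbtps2, a protease that releases SREBP (0.27, SE 0.12, adjusted p = 0.534), Fads3 (-0.49, SE 0.21, adjusted p = 0.536) and Pck1, which feeds glycerol synthesis (-1.52, SE 0.72, adjusted p = 0.572).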

How the data were processed

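RNA sequencing libraries of whole BAT (11) and WV (10) were analysed from gene counts. The deposited values are whole-number counts per gene model, not normalized, with model lengths, per the file headers. Per the labels' protocols, RNA was depleted of ribosomal RNA, reverse transcribed with random hexamers and made into Nextera XT libraries. Per the submitters' processing notes, the submitters used TopHat2 2.0.14 and featureCounts 1.4.6 with build mm9, beside SAMtools 0.1.19, Picard 2.2.4, bcl2fastq 2.17.1.14 and edgeR. The strand setting is not given in the sources used here, nor how reads matching several genes were counted, which leaves Scd1 against Scd2 uncertain.

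Counts were scaled by TMM factors, filtered with filterByExpr and put through the quasi-likelihood test of edgeR 4.0.16 in R 4.3.3, with Benjamini-Hochberg adjustment over all models tested and a threshold of 0.05. BAT genotypes were compared with title style (short number or long tag) as covariate and WV genotypes without a covariate. Tissues, and the interaction of genotype with tissue, were fitted over all 21 libraries with title style as covariate. The effect of style was estimated from BAT alone, since all WV libraries carry long tags, and tissue differences are those at the long-tag style. Differences are log2, the SE comes from the fit, and intervals span 2 SE on either side. Precision is limited by the spread between libraries more than by depth. No libraries of a group agreed within sampling noise. Alternatives were other scalings, filters, DESeq2 1.42.0, limma voom 3.58.1, leaving out each library, marker scores as covariates (mean log2 CPM of contractile or adipocyte genes) and replicate blocks. The fit was tested on simulated data with planted changes and no effect of title style, and the outcome is not used here as support.

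Values in every library are given for the genes of the list with the smallest p between genotypes. For the largest tissue differences, BATI4KO BAT is given as range and median and the other groups by library. Related genes that differ between tissues are given by library, range, mean or difference. The genes, lists and tests were chosen with earlier results of these data known.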

Additional observations from a re-analysis of the deposited data

Results flagged for a closer look

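Within a group of libraries, 6 values stood far from the rest by Dixon's test, out of 116 gene and group pairs tested. Chance flags about 1 in 20 groups, or 5.8 here. In BATI4KO BAT, Tkt was at 5115 CPM in BAT_KO_5414, with the next library at 2423 CPM. In floxed BAT, BAT_FX_5503 was high for Agpat2, at 1122 CPM against at most 595 CPM in the others, and for Slc25a1, at 416 CPM against at most 200.3 CPM. Library BAT_FX_3 was low for Lpin2, at 18.8 CPM against at least 26.8 CPM. In floxed WV, WV_FX_5415 was high for Acly, at 21.2 CPM against at most 12.4 CPM, and for Fads1, at 7.21 CPM against at most 4.93 CPM. Library WV_FX_5415 also had the most Adipoq of the WV libraries, at 9.92 CPM, and whether this bears on Acly and Fads1 was not tested.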

How the results depend on the processing

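The tissue counts stayed within 1.5 times under every alternative, at 9244 to 13653 models in BATI4KO and 9425 to 12121 in floxed mice. Library totals reversed Lpin1, to 0.395 in BATI4KO and 0.598 in floxed mice, and Scd2, Me1, Lpin3 and Fads1 gained calls, at 1.116, 1.103, 1.195 and 1.277 in BATI4KO and 1.125, 0.962, 0.992 and 0.842 in floxed mice. In BATI4KO mice calls were also gained for Lpin3 (0.423) and Fads1 (0.53) with upper-quartile scaling, and for Fads1 without BAT_KO_5492 (0.448) or WV_KO_5494 (0.432). In floxed mice they were gained for Scd2 without BAT_KO_2 (0.619), with the replicate block (0.79) and with long tags alone (0.689), for Lpin3 without BAT_KO_3 (0.395) and with long tags alone (0.489), and for Fads1 with the replicate block (0.494).

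The 7 models called between BAT genotypes became 3 with upper-quartile scaling, 3 with a filter of 1 CPM, 372 with DESeq2, 1 without the covariate, 1 with the muscle score and 0 with short numbers alone (1212 at an unadjusted p under 0.05). Leaving out 1 library gave 1 to 16: 16 without BAT_FX_3, 4 without BAT_KO_3, 3 without BAT_KO_5494, 2 without BAT_FX_2 or BAT_FX_5503, and 1 without BAT_FX_1, BAT_FX_5497, BAT_KO_1 or BAT_KO_5492. The 1 model called in WV became 5 with no filter, 111 with DESeq2, and 0 with upper-quartile scaling, library totals, a filter of 1 CPM, the adipocyte score, or the 7 libraries of low Rmrp, an alternative chosen after seeing the data (774 to 1294 at an unadjusted p under 0.05). Leaving out 1 library gave 0 to 11: 11 without WV_KO_5495, 10 without WV_FX_5413, and 0 without WV_FX_5415, WV_FX_5497, WV_FX_5514, WV_KO_5492, WV_KO_5493 or WV_KO_5494 (794 to 1809 unadjusted). Scaling by library totals moved the median log2 difference of all models to 0.129 in BAT, against -0.007 with TMM, and to -0.116 in WV, against -0.008. The 3 models of the interaction became 55 with DESeq2 and 20 with long tags alone, and 3 to 30 with 1 library left out, 30 without BAT_KO_2 and 5 without BAT_KO_1.

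Whether shared title numbers mark paired libraries was not settled. After centring on group means, same-numbered short libraries correlated at 0.131, -0.106 and 0.075. Same-tagged libraries of both tissues correlated at -0.084, 0.079, 0.113 and -0.007. With groups this small, centring alone shapes such values, so they cannot exclude pairing. With a replicate block, short numbers alone gave 0 models in BAT (886 unadjusted), the interaction gave 0 over 8 libraries (1802 unadjusted), and Lpin1 in BATI4KO mice was at -0.293 between tissues (edgeR adjusted p = 0.339). The causes were not tested. Counts this dependent on 1 library limit the genotype comparisons, and depth limits Elovl6 in WV, which the filter of 1 CPM removed.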

Other observations

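Further pathway genes also differed between tissues. Of 52 tested, 35 were higher and 11 lower in BAT than in WV in each genotype (edgeR), where 37.4% of all models were higher and 33.1% lower in BATI4KO mice, and 34.1% and 31.7% in floxed mice. The genes named here were chosen after their values were seen. Hsd17b12, a reductase of fatty acid elongation, was at 59.4 to 126 CPM per kb in BATI4KO BAT and 2.70 to 3.40 in BATI4KO WV, and at 63.6 to 148 in floxed BAT and 2.39 to 3.70 in floxed WV. Its log2 difference was 5.18 in BATI4KO mice (SE 0.16, edgeR adjusted p = 2.94e-16) and 5.34 in floxed mice (SE 0.17, adjusted p = 3.91e-16). Aacs, which activates acetoacetate for lipid synthesis, differed by 5.11 (SE 0.22) in BATI4KO and 4.72 (SE 0.23) in floxed mice. Gyk, the glycerol kinase, differed by 7.10 (SE 0.44) and 8.22 (SE 0.47).

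Acsl6, an acyl-CoA synthetase, ran the other way. It was at 0.0188 to 0.240 CPM per kb in BATI4KO BAT and 9.44 to 10.9 in BATI4KO WV, and at 0 to 0.0458 in floxed BAT and 8.91 to 13.97 in floxed WV. Mbtps2, a protease that releases SREBP, was lower in BAT by log2 differences of -1.40 in BATI4KO (SE 0.13) and -1.05 in floxed mice (SE 0.13).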
